A study of Mus musculus with 36 samples.

Results

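The genes described here are 10 pluripotency genes, Pou5f1, Nanog, Sox2, Zfp42, Esrrb, Utf1, Tdgf1, Dppa4, Dppa5a and Fgf4, which were found by their symbols among the 22761 genes of the expression table. Each was measured in all 36 bulk RNA-seq libraries, which fall into 9 groups of 4. The ex-fetu groups are nephron progenitors (NP), stromal progenitors (SP) and ureteric bud (UB) cells sorted from CD1 mouse kidneys at E11.5 and E12.5. The groups made from mouse embryonic stem cells (mESC) are nephron and stromal progenitors made in culture from E14 mESC, called iNP and iSP, and a ureteric bud counterpart, iUB (eUB in the study), from a line labelled Sox9-mCherry-mESC. Each ex-fetu library pooled the kidneys of the embryos of a single mouse, and each mESC-derived library pooled the embryoid bodies of a single differentiation. The study made iNP and iSP together in culture and separated them by the sort. Whether given iNP and iSP libraries shared a differentiation is not stated. NP and iNP were sorted as ITGA8 high and PDGFRA low, SP and iSP as ITGA8 low and PDGFRA high, UB as RET+ and EpCAM+, and iUB as EpCAM+ and mCherry+. The UB groups follow the sample titles for age, because another label field gives the ages the other way round. Undifferentiated mESC were not analysed here, so the levels below have no pluripotent reference.

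Pluripotent cells of the early embryo, and the stem cell lines made from them, are held undifferentiated by a network of transcription factors in which POU5F1 and SOX2 bind DNA as a pair and NANOG and ESRRB act beside them. The same cells express small embryonic proteins such as DPPA5A and the signalling molecules FGF4 and TDGF1, and most of these genes are shut off as cells leave pluripotency. Several have other known uses, since SOX2 also marks neural progenitors and germ cells express POU5F1 and NANOG. In the developing kidney none of the 10 is a standard marker of nephron, stromal or ureteric bud progenitors. The purpose of the comparison, as far as the study states it, was to set cells made from mESC beside the ex-fetu cells they stand for.

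Promoter sequence is shown for Nanog, Zfp42 and Sox2, because these members held matches to the DNA letters that POU factors bind, although each had its own order of groups in level. The sequences are those of RefSeq on GRCm38.p6, 150 bases each, read 5′ to 3′ on the strand of the gene, with the matched letters in capitals.
Nanog, chr6:122707339-122707488, + strand: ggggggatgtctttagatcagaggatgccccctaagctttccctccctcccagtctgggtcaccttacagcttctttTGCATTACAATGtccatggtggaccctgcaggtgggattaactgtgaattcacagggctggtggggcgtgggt
Zfp42, chr8:43307110-43307259, - strand: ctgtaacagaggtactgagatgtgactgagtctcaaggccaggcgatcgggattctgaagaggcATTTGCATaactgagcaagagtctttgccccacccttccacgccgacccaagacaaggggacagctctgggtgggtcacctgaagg
Sox2, chr3:34649845-34649994, + strand: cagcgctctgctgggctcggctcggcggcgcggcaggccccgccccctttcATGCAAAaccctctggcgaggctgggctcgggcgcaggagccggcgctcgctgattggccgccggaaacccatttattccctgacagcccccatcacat
The capitals in Nanog mark a joined SOX and POU element, the letters CATTGT followed after 1 base of any kind by ATGCA, searched on both strands, which begins 73 bases before the start site. That element was in 9 of 32851 promoter windows of 300 bases, or 0.0274%, and 2 of the 9 were the overlapping windows of the Nanog starts. The capitals in Zfp42 mark the octamer ATGCAAAT read on the other strand, which 1.74% of windows held. The capitals in Sox2 mark ATGCAAA, which 4.63% of windows held and which lies inside the octamer. It begins 99 bases before the RefSeq start used for that window, a start that lies upstream of the GENCODE start given for Sox2 with its levels. The SOX letters CATTGT were in 12.6% of windows, among them those of Nanog, Esrrb and a second start of Pou5f1. Of the 10 members, 8 had an entry in the promoter table, with 11 windows in all, and Dppa4 and Dppa5a had none. A match describes letters only.

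The libraries held between 13004352 and 52535113 reads on genes, so that 3 reads, taken here as the limit of detection in a library, stood for 0.0605 to 0.223 normalised CPM (reads scaled to the size of the library, the unit of every level below). Most members lay near that limit in most groups. E12.5_UB-1 stood apart from the other E12.5_UB libraries, with 37.3% of the 14916 genes at 1 or more in that group above all of the other 3 and 39.5% below them, where each of the other libraries was above its 3 neighbours for 20.2% to 22.1% and below them for 17.6% to 23.5%. Its levels are therefore shown apart. For members, the main limma tests between 2 groups and the edgeR test of iUB against E12.5_UB at a filter of 0.2 CPM are also given without it. Other tests that include it are given with it alone. In bulk libraries, fewer cells that express a gene and less RNA of that gene per cell cannot be told apart.

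All 10 members reached 3 reads in each iNP library and 9 to 10 did so in each iSP library, against 4 to 5 in iUB and 1 to 6 in the ex-fetu libraries other than E12.5_UB-1, where all 10 did. Sox2 alone made up most of the signal in iNP. Summed without Sox2, the other members reached 5.53 to 10.7 in iNP and 6.57 to 10.2 in iSP, with overlapping ranges. The same sum was 2.97 to 4.12 in iUB, 1.99 to 3.02 in E11.5_UB and 0.323 to 1.23 in the remaining ex-fetu libraries, but 30.7 in E12.5_UB-1.

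**Figure D1:**
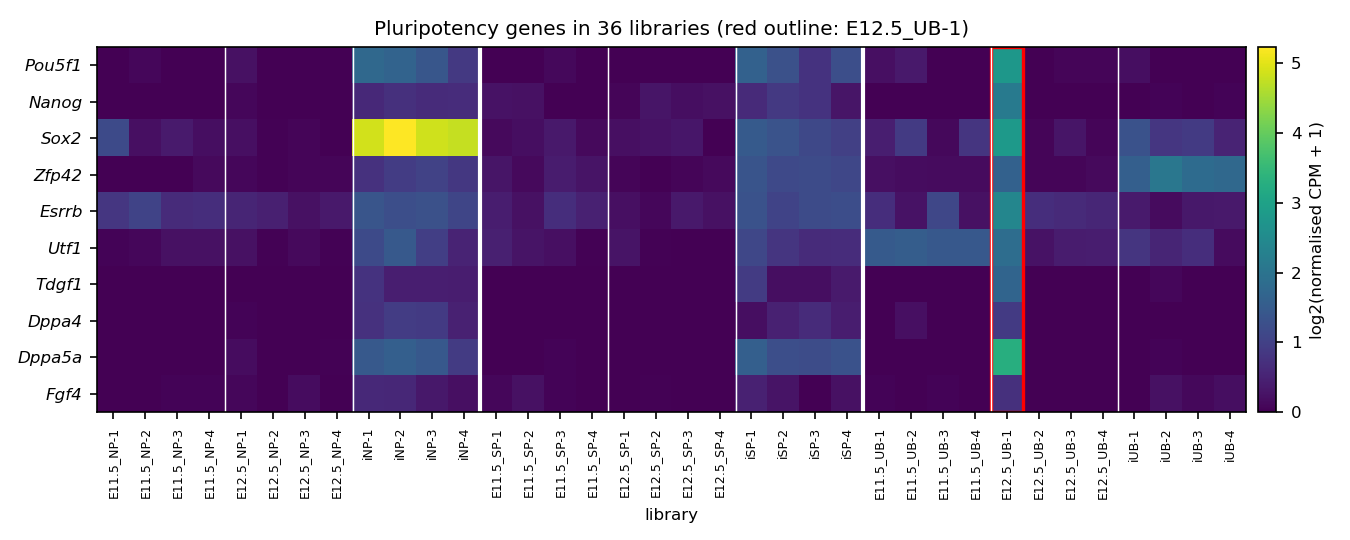
Level of each of the 10 genes (rows) in each of the 36 libraries (columns, by group), as log2(normalised CPM + 1) on the colour scale. Sox2 stands out in the 4 iNP libraries at 26.2 to 36.5, Zfp42 reaches its highest levels in iUB, and E12.5_UB-1 (outlined) is above the other 3 E12.5_UB libraries in every row.

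Pou5f1 (ENSMUSG00000024406, GRCm38 chr17:35506018-35510772, + strand) encodes the POU factor at the centre of the network. Its levels were 2.43, 2.16, 1.64 and 0.819 in the 4 iNP libraries, with a mean of 1.76 ± 0.709 (SD, n = 4). In iSP they were 2.08, 1.47, 0.702 and 1.39, with a mean of 1.41 ± 0.563 (SD, n = 4). The iNP and iSP libraries overlapped, and all 8 were above every iUB and ex-fetu library except E12.5_UB-1. In iUB, Pou5f1 was at 0.149 in iUB-1, which rested on 2 reads, and at 0 in the other 3. E11.5_UB had 0.161 and 0.281 in replicates 1 and 2 and 0 in replicates 3 and 4, whereas E12.5_SP had no read in any library. Pou5f1 overlaps an antisense gene, Gm19553, by 317 exon bases, and the library kit kept strand.

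Nanog (ENSMUSG00000012396, GRCm38 chr6:122707489-122714633, + strand), a homeobox factor of naive pluripotency, had a narrower spread than Pou5f1 in iNP. Its levels there were 0.528, 0.656, 0.556 and 0.592, with a mean of 0.583 ± 0.0552 (SD, n = 4). The iSP libraries were more spread, at 0.532, 0.824, 0.702 and 0.237, with a mean of 0.573 ± 0.255 (SD, n = 4). Both groups lay above every iUB library, of which 2 were at 0 and 2 at 0.0355 and 0.0354. Among ex-fetu cells Nanog had reads mainly in stroma, at 0.2 and 0.17 in E11.5_SP-1 and E11.5_SP-2 and at 0.0542 to 0.222 in E12.5_SP, and no read in E11.5_NP, E11.5_UB or the other 3 E12.5_UB libraries.

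Sox2 (ENSMUSG00000074637, GRCm38 chr3:34650405-34652461, + strand), the SOX partner of POU5F1 and a marker of neural progenitors, had the highest mean of any member in any group. The iNP libraries had 28.2, 36.5, 27.9 and 26.2, with a mean of 29.7 ± 4.63 (SD, n = 4). The iSP libraries had 1.79, 1.54, 1.18 and 0.98, and the iUB libraries 1.49, 0.781, 0.859 and 0.425. The lowest iNP library was thus far above every other library, while iSP and iUB overlapped each other. In ex-fetu cells Sox2 varied within groups, from 0.137 to 1.25 in E11.5_NP, where only replicate 1 exceeded 0.3, and from 0.0755 to 0.844 in E11.5_UB. Per kilobase of exon, which allows levels of different genes to be compared, Sox2 stood at 14.4 in iNP against 0.784 for Pou5f1 and 0.26 for Nanog. Sox2 lies within the long transcript Sox2ot and shares no exon base with it.

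Esrrb (ENSMUSG00000021255, GRCm38 chr12:86361117-86521628, + strand), an orphan nuclear receptor, had reads in every ex-fetu library. Its levels were 1.58, 1.38, 1.46 and 1.14 in iNP and 1.5, 1.07, 1.29 and 1.35 in iSP, which overlapped. E11.5_NP had 0.779, 1.07, 0.554 and 0.615, all below the iNP libraries, and E11.5_UB ranged from 0.178 to 1.17, with replicate 3 within the range of iNP and iSP. In iUB, Esrrb was at 0.106 to 0.297, all below the other 3 E12.5_UB libraries at 0.483 to 0.615.

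Zfp42 (ENSMUSG00000051176, GRCm38 chr8:43295063-43306980, - strand), a zinc finger gene also called Rex1 and widely used to mark naive cells, had an order of groups of its own. The iUB libraries were highest, at 2, 3.23, 2.53 and 2.41, with a mean of 2.54 ± 0.51 (SD, n = 4). The iSP libraries followed at 1.55, 1.22, 1.29 and 1.15, with a mean of 1.3 ± 0.173 (SD, n = 4). The iNP libraries were at 0.668, 0.918, 1.05 and 0.797, with a mean of 0.859 ± 0.165 (SD, n = 4). None of these 3 groups overlapped the next, and all 12 libraries were above E11.5_SP-3, which at 0.318 was the highest ex-fetu library other than E12.5_UB-1. Per kilobase of exon, Zfp42 in iUB stood at 1.35, above Sox2 at 0.431, Utf1 at 0.389 and the other members in those cells.

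Utf1 (ENSMUSG00000047751, GRCm38 chr7:139943789-139945112, + strand), a chromatin-bound factor of stem cells, was, with E12.5_UB-1 left out, the single member with its highest group mean in ex-fetu cells. The E11.5_UB libraries were at 1.78, 1.93, 1.7 and 1.71, with a mean of 1.78 ± 0.107 (SD, n = 4). The iNP libraries had 1.27, 1.77, 0.967 and 0.432, which overlapped with E11.5_UB through iNP-2. The iSP libraries had 1.16, 0.752, 0.554 and 0.574, and the iUB libraries 0.743, 0.461, 0.601 and 0.106. In E11.5_NP and E11.5_SP the levels were 0.039 to 0.171 and 0.026 to 0.367, and in the other 3 E12.5_UB libraries 0.189 to 0.338, all below every E11.5_UB library.

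Dppa5a (ENSMUSG00000060461, GRCm38 chr9:78367052-78368177, - strand) encodes a small RNA-binding protein of pluripotent cells, and Dppa4 (ENSMUSG00000058550, GRCm38 chr16:48283733-48294237, + strand) a chromatin protein of the early embryo. Dppa5a was at 1.76, 2, 1.7 and 0.865 in iNP and at 1.98, 1.4, 1.33 and 1.49 in iSP, overlapping ranges. Outside these 8 libraries and E12.5_UB-1 its highest level was 0.123, in E12.5_NP-1, and it had no read in E11.5_NP, E11.5_UB or E12.5_SP. Per kilobase of exon, Dppa5a was second to Sox2 among the members in iNP, at 2.55, and first in iSP, at 2.5. Dppa4 was at 0.668, 0.918, 0.849 and 0.387 in iNP and at 0.145, 0.394, 0.554 and 0.338 in iSP, which overlapped. It had no read in any iUB, E11.5_NP, E11.5_SP or E12.5_SP library and 0.161 in E11.5_UB-2. Both genes have near-identical copies in the genome, and reads could have been divided between them and copies that share at least 95% of their bases, among them Gm14058 for Dppa4 and Dppa5b, Dppa5c and a stretch of Pigp for Dppa5a.

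The signalling members had the lowest means in iNP. Tdgf1 (ENSMUSG00000032494, GRCm38 chr9:110939603-110946158, - strand) encodes the membrane-bound co-receptor of the ligand Nodal. It was at 0.703, 0.361, 0.351 and 0.341 in iNP and at 0.87, 0.143, 0.148 and 0.304 in iSP, with replicate 1 highest in both. No ex-fetu library except E12.5_UB-1 held a read of Tdgf1, which like Nanog and Zfp42 has a near-identical pseudogene. Fgf4 (ENSMUSG00000050917, GRCm38 chr7:144847367-144865243, + strand) encodes a secreted growth factor with which pluripotent cells signal to each other. Its levels were 0.528, 0.492, 0.264 and 0.159 in iNP, 0.387, 0.215, 0 and 0.169 in iSP and 0, 0.177, 0.0859 and 0.142 in iUB, and these 3 groups overlapped.

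**Figure D2:**
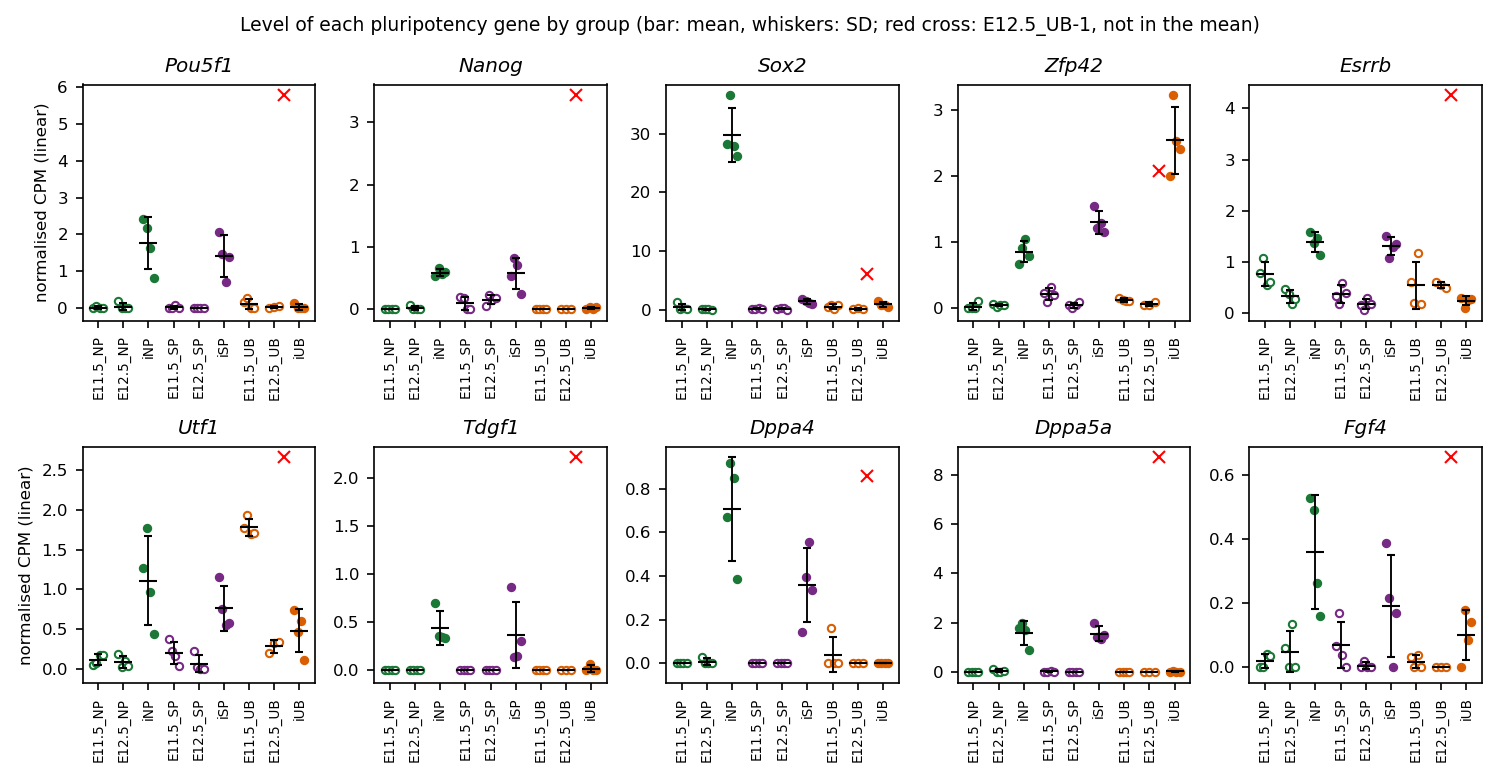
Normalised CPM of each gene by group, with a point for each library, a bar at the group mean and whiskers for the SD (n = 4, or 3 in E12.5_UB, whose replicate 1 is drawn as a cross and left out of the mean). Nanog, Dppa5a, Tdgf1 and Pou5f1 are highest in iNP and iSP among groups, Zfp42 in iUB at a mean of 2.54, and Utf1 in E11.5_UB at a mean of 1.78.

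In some groups a single library was highest or lowest for most members. The library iNP-4 was the lowest of its group for 8 of the 10, and iSP-1 the highest of its group for 8 of the 10. In E12.5_NP, replicate 1 was the highest for 8. In E11.5_NP, E12.5_SP, E11.5_UB and iUB no library was highest or lowest for more than 5. The matching share over all genes was not computed for these groups, so the counts are not a result about the members.

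The iNP were compared with E11.5_NP. Sox2 was 0.137 to 1.25 in E11.5_NP and 26.2 to 36.5 in iNP, a log2 fold change of 4.44 ± 0.22 (SE), and it rose (limma, adjusted p = 2.54e-07). Esrrb was higher in all 4 iNP libraries than in any E11.5_NP library, by 0.45 ± 0.12 (SE) on the log2(CPM + 1) scale (limma, adjusted p = 0.00944), a call that was lost under quantile normalisation and in a fit of all libraries. These were the 2 members that passed the filter of at least 1 CPM in 4 libraries, and both were called, where 64.7% of all genes tested were called in either direction. Since most members lay under that filter, the reads were also recovered from the values and tested with edgeR at a filter of 0.2 CPM. In that test 9 members passed and 9 were higher in iNP, where 31.9% of all genes were called higher, but 7 of the 9 passed through the iNP libraries alone, so the count itself carries no weight. The call of Esrrb in that test was lost without E11.5_NP-3, E11.5_NP-4, iNP-1 or iNP-3 (edgeR, adjusted p = 0.0534 to 0.0668), which left 8.

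From pooled reads the sizes were large for the members that E11.5_NP hardly held. Pou5f1 had 227 reads in iNP and 2 in E11.5_NP, a ratio of 89.6 with a 95% counting interval of 24.5 to 744. Both of those reads were in E11.5_NP-2, and without that library Pou5f1 was at least 43.3-fold higher against a floor of 3 reads over the other 3. With any library left out its edgeR adjusted p lay between 3.12e-05 and 0.000377. Pou5f1 passed the filter through the iNP libraries alone and could only come out higher, so this range is no independent support. Against no reads in E11.5_NP, Dppa5a was at least 54.5-fold higher in iNP, Dppa4 at least 24.5-fold, Nanog at least 21.0-fold and Tdgf1 at least 15.3-fold, each set against a floor of 3 reads over the group. The smallest ratio was that of Esrrb, at 1.78, and Utf1 was 9.34-fold higher. Counting intervals and floors cover counting error only.

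The iSP were compared with E11.5_SP. Dppa5a, at 1.33 to 1.98 in iSP and a single read in E11.5_SP, rose by 1.33 ± 0.11 (SE) on the log2(CPM + 1) scale (limma, adjusted p = 6.09e-06). Zfp42 rose by 0.92 ± 0.11 (SE), with E11.5_SP at 0.0973 to 0.318 (limma, adjusted p = 5.33e-05). Esrrb rose by 0.75 ± 0.12 (SE), with E11.5_SP at 0.17 to 0.596 (limma, adjusted p = 0.000477). For all 3 the groups did not overlap, which followed from the way they passed the filter. They were the 3 members that passed the filter, beside 67.6% of all genes called in either direction, but all passed through the iSP libraries alone and could only come out higher, so the count carries no weight.

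In the edgeR test on recovered reads 7 members passed in iSP against E11.5_SP and 7 were higher, beside 30.8% of all genes called higher. In addition to those 3 these were Pou5f1 (edgeR, adjusted p = 6.09e-05), Sox2 (6.27e-05), Utf1 (0.0101) and Nanog (0.0156). Of the 7, 2 (Pou5f1 and Dppa5a) passed through the iSP libraries alone and could only come out higher. Pou5f1 was 92.1-fold higher from 2 reads in E11.5_SP, with a 95% counting interval of 25.05 to 768. Both of those reads were in E11.5_SP-3, and without that library Pou5f1 was at least 49.9-fold higher against a floor of 3 reads over the other 3. Dppa5a had 160 reads in iSP and 1 in E11.5_SP, a ratio of 205 with a 95% counting interval of 36.2 to 8137, and without E11.5_SP-3, which held that read, it was at least 55.5-fold higher. Against no reads in E11.5_SP, Dppa4 was at least 16.6-fold higher and Tdgf1 at least 14.9-fold, or 9.03-fold without iSP-1. Among members with at least 10 reads in each group the ratios were 9.02 for Sox2, 6.4 for Zfp42, 5.91 for Nanog, 3.94 for Utf1, 3.7 for Esrrb and 2.43 for Fgf4. Without E11.5_SP-2 the ratio was 8.89 for Nanog and 5.63 for Fgf4.

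The iUB were compared with E11.5_UB. Zfp42 was 0.107 to 0.161 in E11.5_UB and 2 to 3.23 in iUB, 20.7-fold higher in pooled reads. It rose by 1.64 ± 0.13 (SE) on the log2(CPM + 1) scale (limma, adjusted p = 4.03e-06). Utf1 fell by 0.93 ± 0.15 (SE), being 4.13-fold lower in iUB in pooled reads (limma, adjusted p = 0.000487). Neither gene overlapped between the groups, which followed from the way they passed the filter. Both members that passed the filter were called, beside 60.5% of all genes, but Zfp42 passed through iUB alone and Utf1 through E11.5_UB alone, so that the filter fixed the direction of each and the count carries no weight. Macrophage markers differed between the same groups, with a summed level of 0.142 to 0.248 in iUB against 36.2 to 61.8 in E11.5_UB and 5 of 5 lower by limma. In the other 3 E12.5_UB libraries, where Utf1 was at 0.189 to 0.338, that sum was 29.7 to 49.8. The part of macrophages in the level of Utf1 was not tested.

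Sox2 and Esrrb entered the edgeR test on recovered reads beside them and were not called between iUB and E11.5_UB, with adjusted p of 0.305 and 0.14. In that test 2 of 4 members were called, beside 53.7% of all genes. Pou5f1, Nanog, Tdgf1, Dppa4, Dppa5a and Fgf4 lay under both filters in iUB and E11.5_UB. Over all 4 libraries of a group, Pou5f1 had 2 reads in iUB and 12 in E11.5_UB, and Nanog had 2 and 0.

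Set against E12.5 in place of E11.5, the members tested in iNP and iSP were again higher, in tests that share the iNP and iSP libraries with those against E11.5. Sox2 was 4.85 ± 0.14 (SE) higher on the log2(CPM + 1) scale in iNP than in E12.5_NP (limma, adjusted p = 2.91e-08), and Esrrb 0.85 ± 0.12 (SE) higher (limma, adjusted p = 0.00025). These were both of the members that passed, each through iNP alone, beside 44.3% of all genes called. In iSP against E12.5_SP the differences were 1.34 for Dppa5a, 1.13 for Zfp42 and 0.97 for Esrrb, with limma adjusted p of 8.98e-06, 1.62e-05 and 6.84e-05, which were 3 called of 3 passing, all through iSP alone, beside 62.1% of all genes. With edgeR on recovered reads 9 of 9 members were higher in iNP, beside 23.4% of all genes called higher, and 7 of 7 in iSP, beside 28.8%. Of these, 8 and 3 passed the filter through the mESC-derived libraries alone, so none of these counts carries weight.

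The comparison of iUB with E12.5_UB depended on E12.5_UB-1 and, for Esrrb, on single iUB libraries. Zfp42 was the member that passed the filter of at least 1, and it was 1.34 ± 0.34 (SE) higher in iUB with all 4 E12.5_UB libraries (limma, adjusted p = 0.0119), beside 44.4% of all genes called. Without E12.5_UB-1 the difference was 1.73 (limma, adjusted p = 2.88e-05), and the pooled reads were 41.9-fold higher in iUB, against 4.21-fold with all 4. By edgeR on recovered reads with all 4 libraries Zfp42 was not called (adjusted p = 0.108) and Esrrb was lower in iUB (adjusted p = 0.0308), which made 1 of 4 members called beside 38.5% of all genes. The Esrrb call was lost without iUB-2, iUB-3 or iUB-4 (edgeR, adjusted p = 0.0665 to 0.0859). Without E12.5_UB-1 the edgeR test called 3 members, beside 46.6% of all genes, with Zfp42 (adjusted p = 1.02e-05) and Sox2 (adjusted p = 0.00596) higher in iUB and Esrrb lower (adjusted p = 0.0372). The pooled-read ratios without that library were 7.23 for Sox2 and 2.44 for Esrrb, the latter higher in E12.5_UB.

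**Figure D3:**
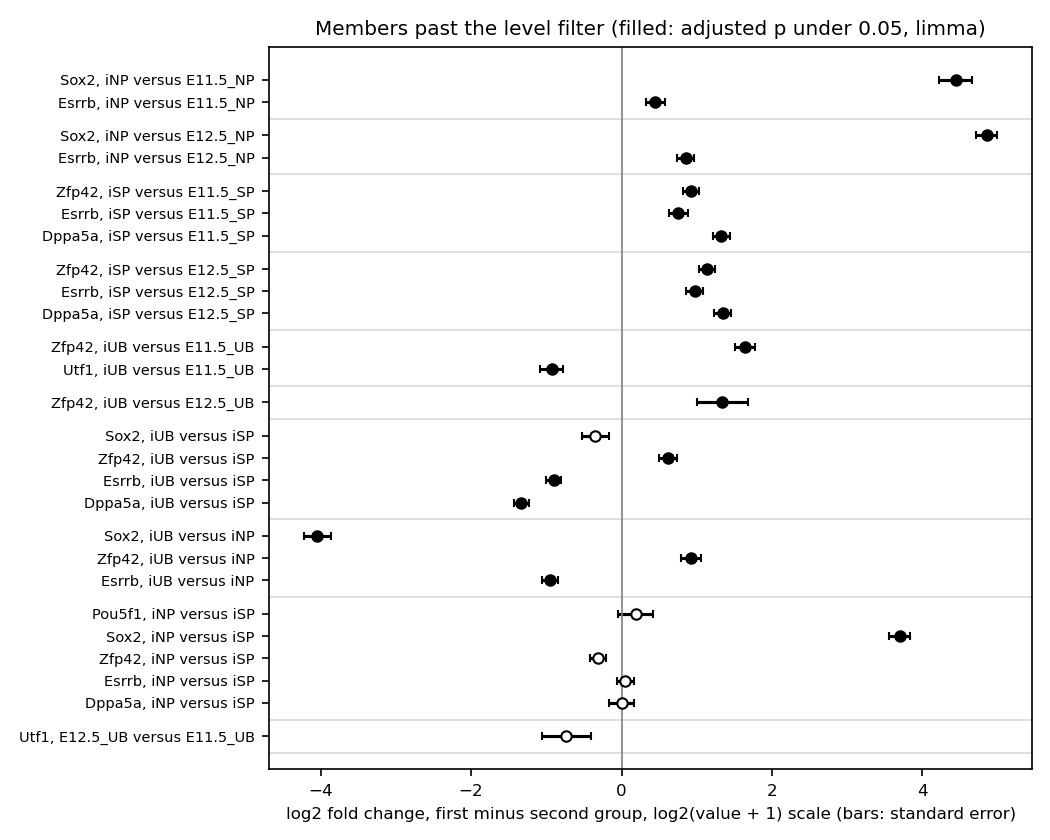
Log2 fold change, first minus second group on the log2(normalised CPM + 1) scale, of every member that passed the filter of at least 1 CPM in each comparison, with bars for the standard error and filled points where limma called the gene after Benjamini-Hochberg adjustment. Against E11.5, Sox2 lies at 4.44 for iNP, and Zfp42 at 1.64 and Utf1 at -0.93 for iUB.

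Between the mESC-derived groups, iNP and iSP differed in Sox2 and in no other called member. Sox2 was 21.9-fold higher in iNP in pooled reads and 3.70 ± 0.14 (SE) higher on the log2(CPM + 1) scale (limma, adjusted p = 3.6e-07). It was 1 of 5 members that passed the filter, beside 30.7% of all genes called, and with edgeR on recovered reads it was 1 of 10, beside 27.8%. Zfp42 lay lower in all 4 iNP libraries than in any iSP library, at -0.31 ± 0.11 (SE) for iNP minus iSP, with a limma adjusted p of 0.0598. The differences, iNP minus iSP, were 0.19 ± 0.23 (SE) for Pou5f1, 0.05 ± 0.11 (SE) for Esrrb and 0.00 ± 0.16 (SE) for Dppa5a, with limma adjusted p of 0.575, 0.745 and 0.994. In pooled reads the ratio of iNP to iSP was 1.21 for Pou5f1, with a 95% counting interval of 0.979 to 1.5, and 0.994 for Dppa5a, with an interval of 0.805 to 1.23.

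The iUB differed from iSP in 3 of the 4 members tested, 2 of which passed through iSP alone, beside 64.7% of all genes. The difference, iUB minus iSP, was -1.33 ± 0.10 (SE) for Dppa5a on the log2(CPM + 1) scale (limma, adjusted p = 1.89e-06), -0.90 ± 0.10 (SE) for Esrrb (2.87e-05) and 0.61 ± 0.12 (SE) for Zfp42 (0.0014). Sox2 was not called, at -0.35 ± 0.18 (SE) with a limma adjusted p of 0.116. It passed the threshold with the replicate numbers as a block and without iUB-1 (-0.49, limma, adjusted p = 0.0117), and lay at -0.22 without iUB-4. By edgeR on recovered reads 5 of 7 members were called, beside 59.3% of all genes, and Pou5f1 (adjusted p = 9.55e-05) and Nanog (adjusted p = 0.000282) were the ones added, both lower in iUB. Of those 7, the 3 that passed through iSP alone were Pou5f1, Nanog and Dppa5a. They could only come out lower in iUB, so their calls carry no weight. In pooled reads Dppa5a was 142-fold higher in iSP than in iUB, where it had 1 read, with a 95% counting interval of 25.05 to 5627. Pou5f1 was 63.7-fold (interval 17.3 to 531) and Nanog 26.5-fold higher (interval 7.04 to 224), with 2 reads each in iUB. Both Pou5f1 reads were in iUB-1 and the Dppa5a read was in iUB-2, so these ratios depend on those libraries.

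Against iNP, iUB had less Sox2, with a difference of -4.04 ± 0.18 (SE) on the log2(CPM + 1) scale (limma, adjusted p = 9.18e-08). For Esrrb the difference was -0.95 (limma, adjusted p = 5.3e-05) and for Zfp42 0.92 (limma, adjusted p = 0.000263). All 3 members that passed were called, 1 of them passing through iNP alone, beside 52.2% of all genes. By edgeR on recovered reads 8 of 9 were called, beside 48.2% of all genes, with Utf1 as the exception (adjusted p = 0.0859), but 5 of the 9 passed through iNP alone. The iUB came from another mESC line than iNP and iSP and through another protocol and sort, and these cannot be told apart from the cell type in such comparisons.

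Whether the step from E11.5 cells to their mESC-derived counterparts differed between cell types was tested as a difference of differences with limma. The filter took the libraries of all groups of a test together. A member high in a single group could therefore pass through it, and that group would bear on the direction, so the counts of these tests carry no weight. Between UB and SP, 5 members were called, beside 47.4% of all genes. The difference was -1.49 ± 0.20 (SE) for Utf1 (adjusted p = 1.7e-05), which was lower in iUB than in E11.5_UB and had a higher mean in iSP than in E11.5_SP. For Dppa5a it was -1.32 ± 0.12 (SE) (2.94e-07), but the gene had no read in E11.5_UB and 1 in iUB, so that this value restates its change in iSP. It was -1.03 ± 0.23 (SE) for Esrrb (0.0017), 0.72 ± 0.15 (SE) for Zfp42 (0.000959) and -0.70 ± 0.26 (SE) for Sox2 (0.0352), the last being lost when some single libraries are left out.

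Between UB and NP, 4 members were called in the same limma test, beside 47.1% of all genes. The differences were -4.11 ± 0.32 (SE) for Sox2 (adjusted p = 3.41e-08), -1.82 for Utf1 (1.19e-05), 0.79 for Zfp42 (0.000409) and -0.73 for Esrrb (0.0168). Between NP and SP, Sox2 alone was called, at 3.42 ± 0.27 (SE) (limma, adjusted p = 8.43e-08), beside 29.3% of all genes. For Pou5f1, Zfp42, Esrrb and Dppa5a that difference was 0.19, -0.07, -0.30 and 0.02, with limma adjusted p of 0.627, 0.762, 0.2 and 0.962. Each pair of these tests shares the libraries of a cell type.

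Between the ages of ex-fetu cells no member was called. In UB, Utf1 was the member tested by limma, at -0.74 ± 0.33 (SE) for E12.5 minus E11.5 (adjusted p = 0.126, unadjusted p = 0.0487), beside 26.5% of all genes called. It was at 1.7 to 1.93 in E11.5_UB and at 0.189 to 0.338 in the other 3 E12.5_UB libraries, with E12.5_UB-1 above both at 2.66. Without E12.5_UB-1 Utf1 fell by 1.12 on the log2(CPM + 1) scale (limma, adjusted p = 0.000109), and pooled reads were 6.28-fold higher in E11.5_UB. By edgeR on recovered reads 0 of 3 members were called in UB and 0 had an unadjusted p under 0.05, beside 20.3% of all genes, and DESeq2 called 0. These edgeR and DESeq2 fits included E12.5_UB-1 and were not run without it.

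In SP and NP no member passed the filter of at least 1, where limma called 8.52% and 6.34% of all genes. By edgeR on recovered reads Esrrb was the member tested in each, with 0 called in SP and 0 in NP, beside 7.23% and 5.36% of all genes. Esrrb was 0.554 to 1.07 in E11.5_NP and 0.181 to 0.462 in E12.5_NP, which did not overlap, with an edgeR adjusted p of 0.077 and an unadjusted p of 0.00669. In SP it was 0.17 to 0.596 at E11.5 and 0.0605 to 0.287 at E12.5, which overlapped, with an edgeR adjusted p of 0.276. DESeq2 called 0 members in either.

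E12.5_UB-1 held reads of all 10 members, 898 in total, where the other 3 E12.5_UB libraries held 19 to 26. Dppa5a was at 8.72 from 213 reads, Pou5f1 at 5.77 from 141 and Nanog at 3.44 from 84, and the other 3 libraries had no read of Dppa5a or Nanog and 0 to 0.0483 of Pou5f1. Sox2 was at 6.1 against 0.0473 to 0.229, Esrrb at 4.26 against 0.483 to 0.615 and Zfp42 at 2.09 against 0.0457 to 0.0966. Utf1 was at 2.66, Tdgf1 at 2.21, Dppa4 at 0.86 and Fgf4 at 0.655. E12.5_UB-1 was the highest of all 36 libraries for Pou5f1, Nanog, Esrrb, Utf1, Tdgf1, Dppa5a and Fgf4.

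The ratio of E12.5_UB-1 to the iNP mean, and to the iSP mean, differed between members. Relative to the iNP mean, Nanog was 5.9 times, Dppa5a 5.52 times, Tdgf1 5.03 times, Pou5f1 3.27 times and Esrrb 3.06 times as high, whereas Dppa4 was at 1.22 times and Sox2 at 0.205 times. Relative to the iSP mean Zfp42 was at 1.6 times and Dppa4 at 2.4 times, and the other members ran from 3.26 for Esrrb to 6.04 for Tdgf1. The iSP libraries themselves ranged from 0.143 to 0.87 for Tdgf1. Per kilobase of exon the order in E12.5_UB-1 began with Dppa5a at 14.1, Sox2 at 2.97, Pou5f1 at 2.57 and Utf1 at 2.17, against Sox2 at 14.4 and Dppa5a at 2.55 in iNP. A single library gives these values no error.

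Markers of other cells also stood apart in E12.5_UB-1. The summed level of 8 ureteric bud markers was 1894 there and 2886 to 3049 in the other 3 E12.5_UB libraries, with 8 of 8 lower. Nephron progenitor markers summed to 512 against 54.9 to 86.7, with 8 of 8 higher, and Six2 was at 94.8 against 7.43 to 13.5. Stromal markers summed to 311 against 15.1 to 31.9, with 6 of 6 higher, and endothelial markers to 109 against 20.6 to 23.3, with 6 of 6 higher. These counts stand beside the 37.3% of all genes that were above the other 3 libraries and the 39.5% that were below them.

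For the germ cell list the sum in E12.5_UB-1 was 11.4 against 5.3 to 8.16 in the other 3 E12.5_UB libraries. Most of that sum was Tfap2c at 4.5 and Prdm1 at 3.11, which other cells also use. Dazl was at 1.68 against 0 to 0.0947 and Ddx4 at 0.819 against 0 to 0.145, while Nanos3 at 0.614 and Dnd1 at 0.655 lay within the range of the other 3. The neural list summed to 42.3 against 21.8 to 29.5, and the erythroid list, which is at most 0.141 in the mESC-derived libraries, to 62.2 against 3.98 to 28.6. Neural crest and glial markers summed to 291 against 404 to 428, and macrophage markers to 30.3 against 29.7 to 49.8. The part of any of these cells in the members' levels was not tested.

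**Figure D4:**
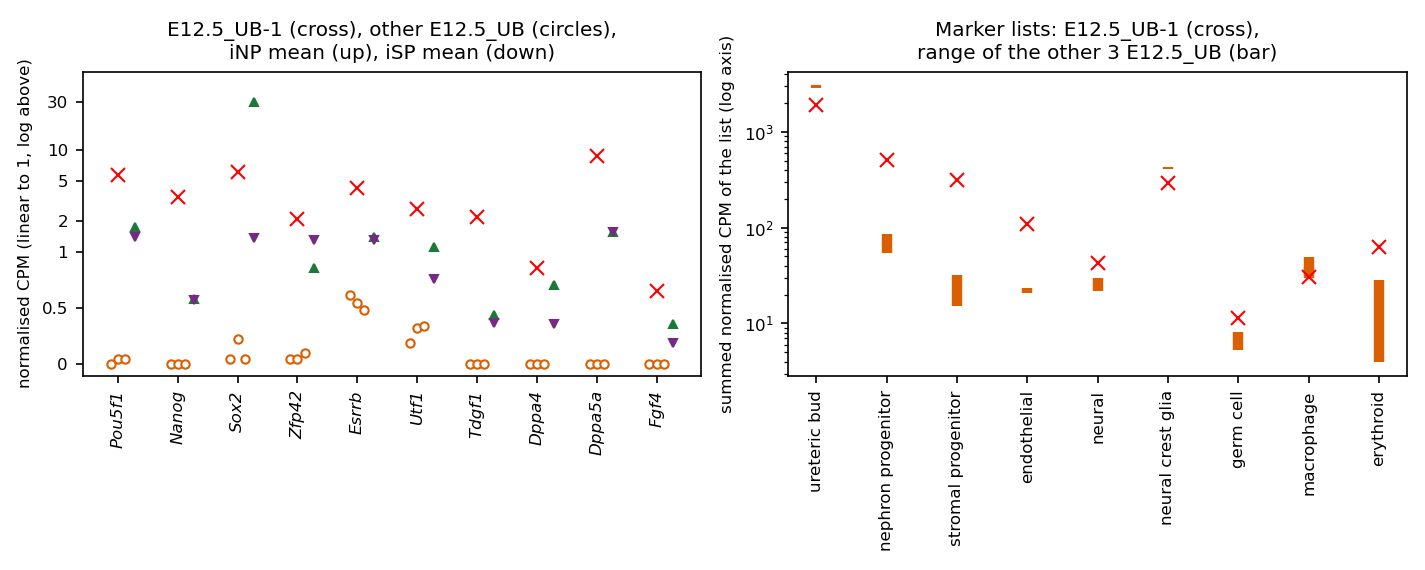
Left, normalised CPM of each gene (axis linear to 1 and logarithmic above) in E12.5_UB-1 (crosses), the other 3 E12.5_UB libraries (circles) and the means of iNP (triangles up) and iSP (triangles down). Right, summed normalised CPM of each marker list on a log axis, with crosses for E12.5_UB-1 and bars for the range of the other 3. Dppa5a, Pou5f1 and Nanog reach 8.72, 5.77 and 3.44 in E12.5_UB-1, above both means, and the nephron progenitor list reaches 512 against 54.9 to 86.7.

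In the other groups the marker lists were checked against the labels. Ureteric bud markers summed to 2776 to 3007 in iUB against 83.4 to 133 in iSP and iNP, and nephron progenitor markers to 673 to 1133 in iNP against 1706 to 1918 in E11.5_NP. Stromal markers summed to 1412 to 1502 in iSP against 2617 to 4309 in E11.5_SP, and 4 of 6 were lower by limma, beside 67.6% of all genes called in either direction. Among these Foxd1, which marks cortical stroma, was at 15.2 in iSP against 410 in E11.5_SP and 20.1 in iUB, while Pdgfra, which the sort used, was at 410 against 344. The neural list, which bears on Sox2, summed to 53.9 to 88.6 in iNP, 48.1 to 63.6 in E11.5_NP, 39.7 to 43.4 in iUB and 7.33 to 9.42 in iSP. Different genes carried these sums, with Dcx at 45.6 in E11.5_NP and 6.55 in iNP, and Nkx6-1 at 24.7 and Tubb3 at 13.4 in iUB. Of its 10 genes tested between iNP and E11.5_NP, 7 were higher and 1 lower by limma, beside 64.7% of all genes called in either direction, the lower one being Dcx. Among the higher were Fabp7, a marker of neural progenitors, at 21.4 against 1.57, and Sox1 at 5.96 against 0.0195. The germ cell list, of which Prdm14 and Dppa3 were not in the table, summed to 6.92 to 7.77 in iNP, 4.12 to 4.98 in iSP, 16.2 to 20.9 in iUB and 2.99 to 3.76 in E11.5_NP. In iUB that sum was mostly Tfap2c at 10.9 and Prdm1 at 5.75, which other cells also use and which were at 3.52 and 3.72 in E11.5_UB. Dazl and Ddx4 were at 0.0363 and 0.417 in iUB, at 0.181 and 0.748 in iSP and at 0.0339 and 0.615 in E11.5_SP. Tfap2c, Prdm1, Nanos3 and Dnd1 were lower in iSP, at 0.89, 0.59, 1.04 and 0.916 against 1.68, 2.18, 1.17 and 1.91 in E11.5_SP. Endothelial markers summed to 60.9 to 98.3 in iNP and 43.2 to 67.7 in iSP, against 14.7 to 40.5 in E11.5_NP and 20.8 to 55.6 in E11.5_SP, although the sort of these cells was gated against CD31. The part of neural, germ or endothelial cells in the members' levels was not tested.

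Across the 36 libraries the genes whose log2(CPM + 1) was most like that of each member were listed as a description. The libraries share groups, and E12.5_UB-1 can weigh on the correlations, so each is given with it and, in brackets, without it. Pou5f1 was most like Dppa5a, with a Pearson r of 0.981 (0.976), the meiosis gene Stra8, with 0.967 (0.957), and the Notch ligand Dll4, with 0.939 (0.922). For Dppa5a the list was Pou5f1, Stra8 at 0.969 (0.944) and Lefty1, a Nodal antagonist, at 0.963 (0.945).

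The other members resembled different genes. Sox2 was most like Lhx5 at 0.979 (0.978) and Zic5 at 0.979 (0.98), transcription factors of the early nervous system, and Igfbpl1 at 0.976 (0.975). Utf1 was most like Zscan10 at 0.849 (0.852), a zinc finger gene of stem cells. Zfp42 was most like 2410003L11Rik at 0.909 (0.959), and Esrrb was most like Dppa5a at 0.881 (0.808). Among the members themselves the lowest correlation was that of Esrrb with Zfp42, at 0.341 (0.221).

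The wider network was read from a list of other pluripotency genes, 28 of them in the table, and it did not move as a block. Between iNP and E11.5_NP, 8 of 21 tested were higher and 8 lower by limma, beside 64.7% of all genes called in either direction, with a median log2 difference of 0.05 beside 0.07 over all genes tested. Lin28a, an RNA-binding protein of early embryonic cells, was at 81.3 in iNP against 11.1 in E11.5_NP (3.05), and Sall4 was at 20 against 5.67 (2.28), while Klf5 fell from 20.3 to 1.7 (-2.99).

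In iSP against E11.5_SP, 4 of 20 genes of the network list were higher and 8 lower, beside 67.6% of all genes, with a median of -0.10 beside 0.04. Klf5, Klf4 and Klf2, Kruppel-like factors of naive pluripotency that differentiated tissues also use, had log2 fold changes of -4.55, -2.74 and -2.12 in iSP on the log2(CPM + 1) scale. Lin28a was higher, at 20.6 against 5.9. In iUB against E11.5_UB, 8 of 22 were higher and 9 lower, beside 60.5% of all genes, with a median of -0.09 beside 0.02. Klf2 was at 81.2 in iUB against 6.15 in E11.5_UB and Nr0b1 at 6.65 against 0.0699, whereas Sall4 was at 8.06 against 34.3 and Zscan10 at 0.525 against 4.88. Like Utf1, Zscan10 was thus lower in iUB.

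The list of formative and primed state genes, which are switched on as naive cells move towards germ layers, had 16 genes in the table. In iNP against E11.5_NP, 8 of 12 tested were higher and 1 lower, beside 64.7% of all genes called in either direction, with a median of 0.996 beside 0.07. Zic2 was at 31.7 against 0.593, Sox3 at 6.33 against 0.287 and Foxd3 at 5.39 against 0.882. These genes are also expressed in early neural tissue or neural crest. In iSP 3 of 9 were higher and 3 lower, beside 67.6% of all genes, among the latter Pou3f1 at 2.81 against 21.1. In iUB 0 of 5 was higher and 2 were lower, beside 60.5% of all genes, with Dnmt3b at 45.0 against 123 and Etv4 at 178 against 253.

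Tdgf1 serves the Nodal pathway, for which 15 genes were in the table. In iNP 3 of 10 tested were higher than in E11.5_NP and 4 lower, beside 64.7% of all genes called in either direction, with a median of -0.41 beside 0.07. Lefty2, a secreted antagonist, was at 3.81 against 0.0181, while Furin, a protease that cuts the ligand precursor, was at 65.8 against 169. In iSP 2 of 9 were higher and 5 lower than in E11.5_SP, beside 67.6% of all genes, with the receptor Acvr2a at 29.6 against 70.5. In iUB 1 of 8 was higher and 6 lower than in E11.5_UB, beside 60.5% of all genes, with the receptor Acvr1b at 36.8 against 75.0. Furin was lower in all 3 mESC-derived groups by limma.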

How the data were processed

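The 10 genes and all lists were chosen with earlier results of these data known. Per the study's methods and labels, the authors trimmed stranded mRNA libraries with cutadapt, aligned them with STAR to a reference written as GRCh38 (the gene identifiers are those of mouse), and deposited a normalised signal, reads on genes scaled to library size as CPM with edgeR factors, for 36 libraries. Dividing each deposited CPM value by what a single read was worth in its library gave whole reads for 100% of values (tolerance 0.01 reads), and these reads served as counts. A second deposited table held the same values with the authors' means, fold changes and p-values, which were not used. Groups followed the sample titles.

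The main test was limma 3.58.1 (R 4.3.3) on log2(CPM + 1), with eBayes and trend, for genes of at least 1 CPM in at least 4 libraries of a comparison, adjusted over all genes tested by Benjamini-Hochberg and called at 0.05. The added edgeR 4.0.16 quasi-likelihood test on reads used a filter of 0.2 CPM. DESeq2 1.42.0, other pseudocounts, filters and scalings, a replicate block and leaving out each library were alternatives, of which leaving out libraries in edgeR, in differences of changes and in pooled-read ratios was chosen after seeing the data. The log2(CPM + 1) scale understates changes of low genes. The tests were checked on simulated data. Coordinates are GENCODE vM21 on GRCm38, whose identifiers matched 99.5% of the table. Members that pass the filter of at least 1 CPM are named in every such comparison, while some that pass only the filter of 0.2 CPM are not. Of other lists up to 4 called genes of largest size in a comparison serve as examples, and for members reaching a group mean of 1 the 3 genes most like each. Some genes that this rule selects are not reported here, and some list genes and marker genes were named beyond that rule after their values were seen. P-values measure the spread between pools of kidneys or between differentiations.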

Additional observations from a re-analysis of the deposited data

Results flagged for a closer look

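A sample far from the other 3 of its group was found in 15 of 90 sets of 4 libraries (10 genes in 9 groups), where chance gives about 1 in 20 for normally spread values. Many of these sets held libraries at or near 0 reads, where a few reads in a library suffice, so the count cannot be set against that rate. Of these, 10 were E12.5_UB-1, in which each gene was flagged, at 5.77 for Pou5f1, 3.44 for Nanog, 6.1 for Sox2, 2.09 for Zfp42, 4.26 for Esrrb, 2.66 for Utf1, 2.21 for Tdgf1, 0.86 for Dppa4, 8.72 for Dppa5a and 0.655 for Fgf4 (normalised CPM). The other 5 were Sox2 in E11.5_NP-1 at 1.25, Tdgf1 in iNP-1 at 0.703, Utf1 in E12.5_SP-1 at 0.217, Pou5f1 in E12.5_NP-1 at 0.185 and Dppa4 in E11.5_UB-2 at 0.161.

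The change from E11.5 to mESC-derived cells differed between cell types for 5 genes by limma's test of the difference. Beside these, 47.4% of all genes were called between UB and SP, 47.1% between UB and NP and 29.3% between NP and SP. A member could pass the filter through a single group, so these counts carry no weight. Between UB and SP it differed by -1.49 for Utf1, -1.32 for Dppa5a, -1.03 for Esrrb, 0.72 for Zfp42 and -0.70 for Sox2 on the log2(CPM + 1) scale. Between UB and NP it differed by -4.11 for Sox2, -1.82 for Utf1, 0.79 for Zfp42 and -0.73 for Esrrb, and between NP and SP by 3.42 for Sox2.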

How the results depend on the processing

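The number of members called followed the filter, since few pass 1 CPM. At lower filters many members pass through the mESC-derived group alone (7 of 9 at 0.2 for iNP against E11.5_NP), and these could only come out higher there. The same fits called 28.1% to 62.1% of all genes by limma at a filter of 0.2, 33.7% to 51% with no filter and 42.7% to 61.5% by edgeR at 0.2, and the fits given next under other settings, with no library left out, called 18.1% to 64.6%. For iSP against E11.5_SP, 3 called became 7 at a filter of 0.2, 9 with no filter and 7 by edgeR at 0.2. For iNP against E11.5_NP, 2 became 9, 10 and 9, and 1 under quantile normalisation or a fit of all libraries, where Esrrb was lost (adjusted p = 0.567 and 0.0949 by limma). For iSP against E12.5_SP the counts were 7, 10 and 7 in place of 3, for iNP against E12.5_NP 9, 10 and 9 in place of 2, for iUB against iSP 5, 7 and 5 in place of 3, and for iUB against iNP 8, 9 and 8 in place of 3. For iNP against iSP, 1 became 2 at a filter of 0.2 and under quantile normalisation, with Zfp42 added. For iUB against E12.5_UB, 1 became 0 by edgeR and by DESeq2 at a filter of 1. By edgeR at 0.2 leaving out a library gave 0 to 3, with 3 without E12.5_UB-1 and 0 without iUB-2, iUB-3 or iUB-4. For E12.5_UB against E11.5_UB, 0 became 1 in the fit of all libraries and ranged from 0 to 1 with a library left out, Utf1 being called without E12.5_UB-1. With E12.5 in place of E11.5, in a fit that included E12.5_UB-1, 3 members in place of 5 differed between UB and SP. At a filter of 0.2, 9 in place of 4 differed between UB and NP.

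Directions reversed only for small differences or through E12.5_UB-1. Without E12.5_UB-1 the edgeR log2 fold change of iUB over E12.5_UB turned to 2.91 for Sox2 and 0.68 for Utf1, the highest values with a library left out, the lowest being -1.30 and -1.27. Between iNP and iSP, Dppa5a turned to -0.015 with a pseudocount of 0.1, to -0.21 under quantile normalisation and lay between -0.078 and 0.15 with a library left out, and quantile normalisation gave -0.030 for Pou5f1 and -0.12 for Esrrb. In the difference of changes between NP and SP, Zfp42 turned to 0.79 with a pseudocount of 0.1, and Dppa5a to -0.049 with E12.5, and it lay between -0.064 and 0.16 with a library left out. The difference of changes between UB and SP for Sox2 missed the threshold in 9 fits that left out a library (limma, adjusted p = 0.0524 to 0.0785). The causes were not tested.

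No replicate numbers paired the samples by their correlations. With the replicate block Sox2 between iUB and iSP passed the threshold (-0.35, limma, adjusted p = 0.0261), making 4 members called in place of 3, as it did without iUB-1, and the block changed no other call. Upper-quartile scaling moved the median of all genes by up to 0.17 (iNP against E11.5_NP), where the share of calls that were higher went from 54.9% to 66.3%, and from 57.7% to 70% for iNP against E12.5_NP. At 3 reads a library, members under 0.0605 to 0.223 CPM were not detectable.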

Other observations

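FGF4 acts through FGF receptors, whose pathway was read from 14 genes, all tested in each comparison by limma. In iSP 12 were lower than in E11.5_SP and 1 higher, beside 67.6% of all genes called in either direction, with a median of -0.57 beside 0.04. The receptors Fgfr3, Fgfr2 and Fgfr4 were at 11.7 against 77.8, 70.5 against 183 and 1.79 against 5.04. In iNP 4 were higher than in E11.5_NP and 5 lower, beside 64.7% of all genes. Dusp6 and Spry4, feedback inhibitors that the pathway switches on, were at 116 against 38.1 and 18.8 against 6.08, while Sos1 was at 58.6 against 145. In iUB 3 were higher than in E11.5_UB and 4 lower, beside 60.5% of all genes, led by Fgfr3 at 0.566 against 8.72 and Spry2 at 107 against 55.3.

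Relatives of Pou5f1, Sox2 and Esrrb were read from a list of 14 POU, SOX and ESRR genes. In iNP 10 of 12 tested were higher than in E11.5_NP and 1 lower, beside 64.7% of all genes called in either direction, with a median of 1.67 beside 0.07, among them the neural POU genes Pou3f3 at 24.8 against 2.85 and Pou3f2 at 5.48 against 0.131. In iSP 5 of 9 were higher than in E11.5_SP and 1 lower, beside 67.6% of all genes, with Pou2f2 at 24.5 against 1.8 and Esrrg at 6.75 against 2.17. In iUB 3 of 9 were higher than in E11.5_UB and 2 lower, beside 60.5% of all genes, and the largest was Pou2f2 at 0.418 against 1.52.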
